A study of Mus musculus with 72 samples.

Results

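The blood response of mice to 1 Gy of neutrons was compared between day 1 and day 7 after exposure, as the neutron effect at day 7 (irradiated minus control mice) minus the neutron effect at day 1. The comparison rests on 23 of the 72 arrays of the series, chosen by their labels: 6 irradiated mice (Neutron_1Gy_day1) and 5 controls (Control_day1) at day 1, and 6 irradiated mice (Neutron_1Gy_day7) and 6 controls (Control_day7) at day 7. A last comparison adds mice given x-rays, 6 at day 1 and 5 at day 7 after 1 Gy (X-ray_1Gy_day1, X-ray_1Gy_day7), and 5 at day 1 and 6 at day 7 after 4 Gy (X-ray_4Gy_day1, X-ray_4Gy_day7). All were male C57BL/6 mice of 8 to 10 weeks at irradiation, each killed at a single time, so no mouse was measured on both days. The neutron beam also carried a γ-ray component, and the controls were placed in the same holders without exposure. Blood was drawn by cardiac puncture, its RNA was depleted of globin transcripts, and each array measured the RNA of 1 mouse with the dye Cy3. A level below is the log2 intensity of a gene relative to the median of its array, and a change is a difference of such levels, so that every rise or fall is relative to the middle of the measured transcriptome.

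Ionizing radiation kills dividing marrow precursors and circulating lymphocytes, above all B cells. The tumour suppressor p53 switches on genes of cell cycle arrest and apoptosis within hours, and interferon-stimulated genes respond to the damage as well. Young red cells (reticulocytes) still carry the messages of the erythroid precursor they came from, so blood RNA follows the output of the marrow as well as the white cells. In the RNA of whole blood, fewer cells of a type and less RNA per cell cannot be told apart. The study reported normal total blood counts on both days. It also saw no significant change in cell death or in the make-up of the white cells after irradiation. The blood markers Slc4a1, Cd79a, Cd3e, S100a8 and Pf4 were well above background on all 23 arrays.

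The arrays of irradiated mice at day 7 were dimmer than the rest. Between 40.2% and 50.3% of their gene spots were well above background, against 54.3% to 63.9% in the other 3 groups, and the median intensity of their detected probes was 71.4 to 118, against 325.2 to 467.7 in the controls of day 7 and 530 to 1477 at day 1. RNA of another tissue also differed between the days. The mean level of 42 hepatocyte genes was −1.33 to 5.78 in the controls and −1.16 to 7.15 in the irradiated mice of day 1, but −4.44 to −2.46 in the controls of day 7 and −2.92 to 2.21 in the irradiated mice of day 7, where only replicate 1 was above −2.27. Of these 42 genes, 41 and 42 were well above background on at least 50% of the arrays in the controls and the irradiated mice of day 1, and 19 and 14 in those of day 7. Albumin (Alb), their defining transcript, was well above background on all 11 arrays of day 1 and on 2 of 6 in each group of day 7. The part of these transcripts in the results was not tested beyond a fit with the hepatocyte level as a covariate, in which 3301 genes (30.4%) passed, 2292 higher (21.1%) and 1009 lower (9.29%). Slides and scan dates followed the groups closely, since no slide held more than 1 of the 4 groups and the 11 day 1 arrays shared no scan date with the 12 of day 7. With scan date as a fixed block 1497 genes passed (13.8%), 1316 higher (12.1%) and 181 lower (1.67%).

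**Figure D1:**
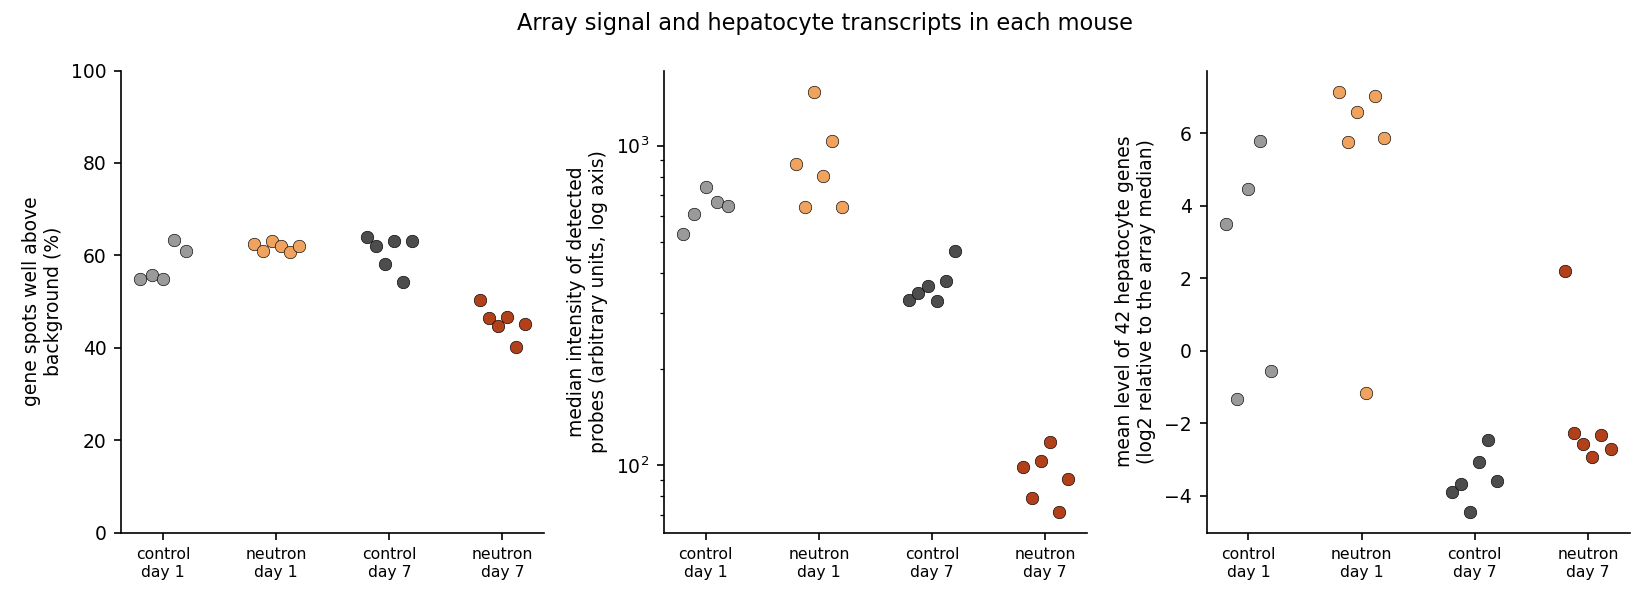
Percentage of gene spots well above background, median intensity of the detected probes (log axis) and mean log2 level of 42 hepatocyte genes, with 1 point per mouse in the 4 groups. The 6 irradiated mice of day 7 sit lowest in the first 2 panels, and the hepatocyte genes are high in most mice of day 1 and low in all but 1 mouse of day 7.

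Of 10863 genes tested, 3116 (28.7%) had a neutron effect that differed between the days at p below 0.001 and a false discovery rate below 5% (limma). The effect was higher at day 7 for 2329 genes (21.4%) and lower for 787 (7.24%), with a median change over all genes of 0.10. At day 1 alone 1900 genes (17.5%) differed from the controls, 756 higher (6.96%) and 1144 lower (10.5%), and at day 7 alone 4166 (38.4%), 2723 higher (25.1%) and 1443 lower (13.3%). The study, with its own gene filter and the same p threshold, reported mostly lower genes at day 7 after 1 Gy of neutrons. The direction over all genes at day 7 is thus opposite to the published one, and the cause was not tested. Of the 2329, 1828 were above the controls at day 7 alone and 155 had been below the controls at day 1 and were above them at day 7. Among the 787, 272 had been above the controls at day 1 and no longer passed the test at day 7, 278 were below the controls at day 7 alone, and 11 turned from above to below. Of the 787, 625 had a probe well above background on at least 50% of the arrays of every group. A further 112 had a probe that was well above background on no array of at least 1 group. For the 2329 higher genes these counts were 2305 and 3. The size of a change that rests on such background readings is not known. Over all genes the change came mostly from the irradiated mice. Between the controls of the 2 days 787 genes differed (7.24%), 618 higher at day 7 (5.69%) and 169 lower (1.56%). The controls moved by more than the irradiated mice between the days for only 38 of the 2329 genes and 29 of the 787.

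**Figure D2:**
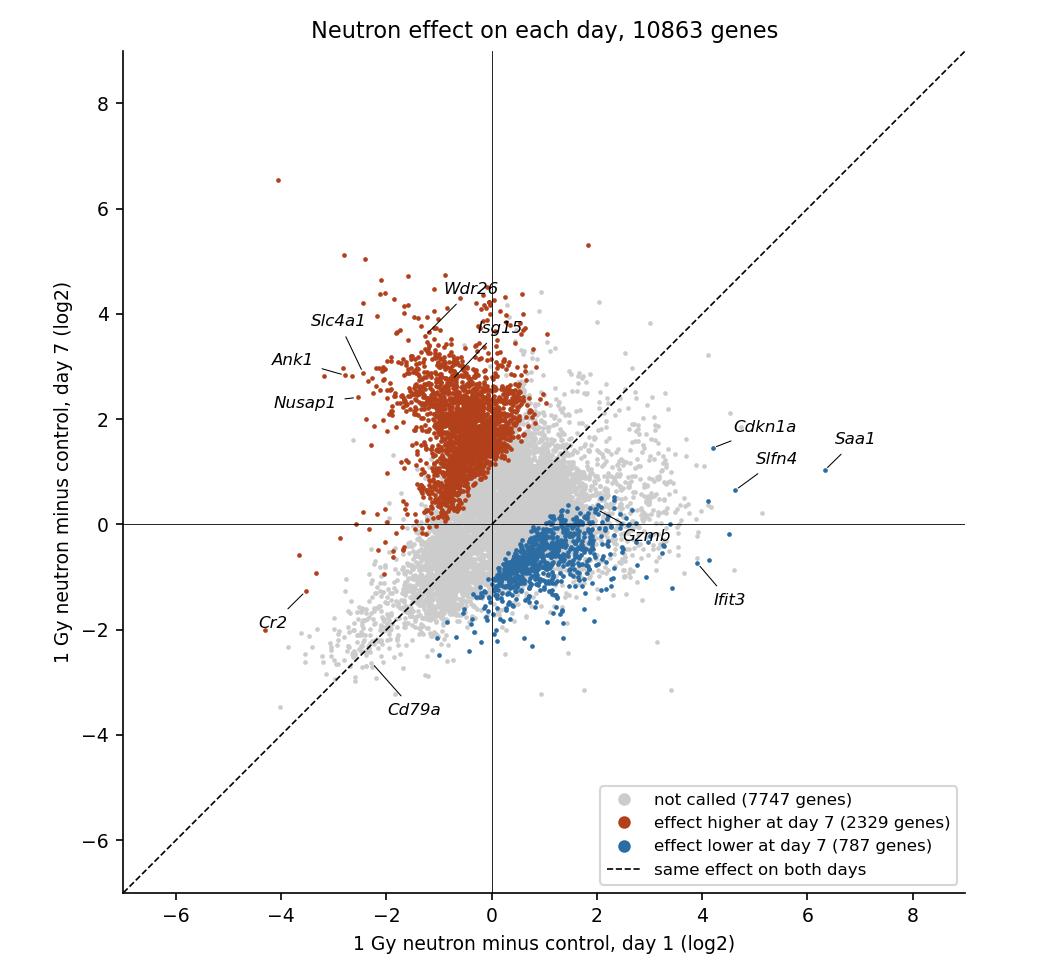
Neutron effect (irradiated minus control, log2) at day 1 on the x axis and day 7 on the y axis for 10863 genes, 1 point per gene, with the dashed line marking equal effects. The 2329 genes with a higher effect at day 7 lie above the line, 1961 of them with opposite signs on the 2 days, and the 787 with a lower effect lie below it, 689 of them with opposite signs. These are signs of the estimates, in genes chosen for their difference. Only 155 and 11 genes passed on both days in opposite directions.

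The number of genes that rose or fell depended on how the arrays were brought to 1 scale. With the intensities set against the spike-in controls the median change over the same 10863 genes was −2.35, and 5718 genes passed (52.6%), 138 higher (1.27%) and 5580 lower (51.4%). With normexp background correction the median was 0.46 and 688 passed (6.33%), 297 higher (2.73%) and 391 lower (3.60%). With dim spots left out it was −0.18 over 10181 genes and 3179 passed (31.2%), 1532 higher (15.0%) and 1647 lower (16.2%). With quantile normalization it was −0.05 and 2826 passed (26.0%), 1844 higher (17.0%) and 982 lower (9.04%). A set of 316 genes kept its call and its direction under all 6 settings of scaling, background and dim spots, 110 of them higher (1.01% of the genes tested) and 206 lower (1.90%). Without the spike-in setting 268 higher (2.47%) and 206 lower genes (1.90%) did so, so that setting removed only higher genes. To hold under all settings is thus a weaker demand on a lower gene than on a higher one. The 110 had a median neutron effect of −1.59 at day 1 and 3.07 at day 7, and 44 of them went from below the controls to above them. The 206 had medians of 1.04 at day 1 and −0.47 at day 7. In the text that follows, a gene of these 316 is said to hold under every scaling. A gene was tested only if it varied across the arrays, so each list below is given by its members tested among those listed, and its counts are read beside the 21.4% higher and 7.24% lower of all genes.

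**Figure D3:**
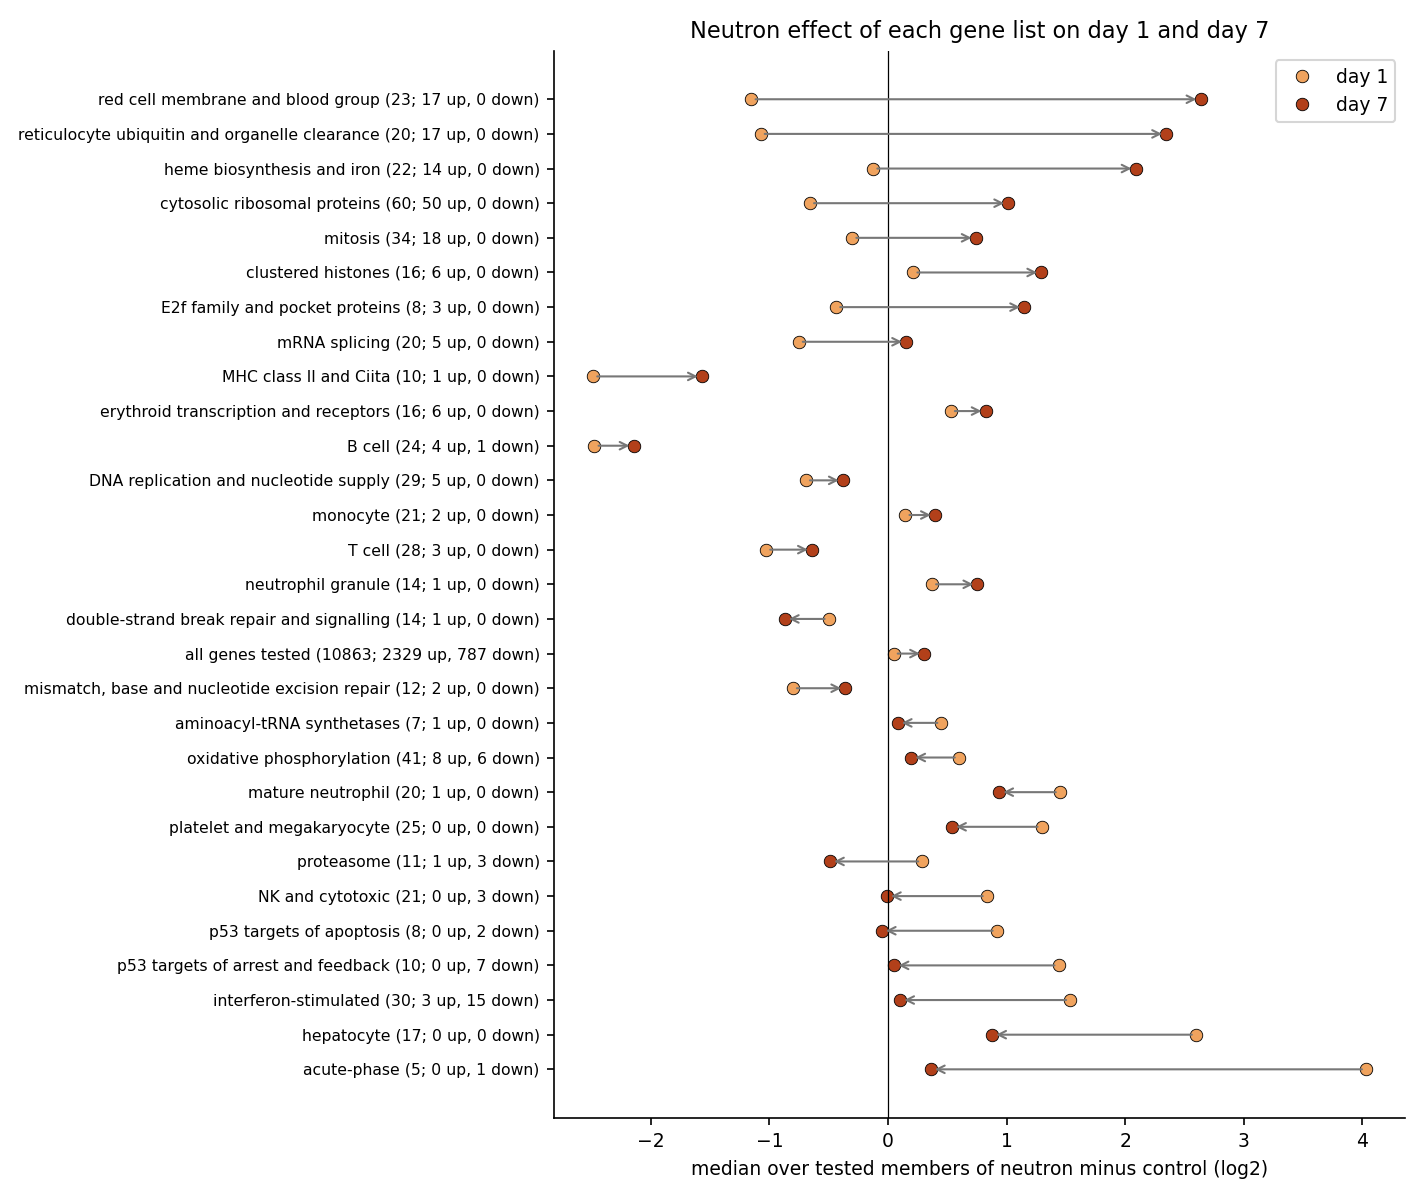
Median neutron effect (log2) over the tested members of the gene lists and all genes at day 1 (light points) and day 7 (dark points), joined by an arrow. The labels give the number of members tested and, after it, how many had a higher (up) and a lower (down) effect at day 7. The red cell membrane and reticulocyte lists run furthest to the right of the lists drawn, from −1.15 to 2.64 and from −1.07 to 2.35, and the acute-phase, interferon-stimulated and p53 lists run to the left. The heart muscle list and the 2 lists chosen by the study are not drawn.

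The genes of the red cell membrane and its blood groups were below the controls at day 1 and above them at day 7 in their median. Of 23 members tested among 25 listed, 17 had a higher effect at day 7 and none a lower one, with a median change of 3.95. On their own, 4 were lower and 2 higher than the controls at day 1, and 19 were higher at day 7. Slc4a1 encodes band 3, the anion exchanger of the red cell. Its levels in the 5 controls of day 1 were 5.37, 6.25, 5.67, 7.08 and 6.71, and in the irradiated mice of day 1 they ran from 2.09 through a median of 3.61 to 5.56. At day 7 the controls ran from 5.67 through 6.55 to 6.72 and the irradiated mice from 8.41 through 9.29 to 9.88. The lowest irradiated mouse of day 7 thus lay above every mouse of the other 3 groups, while at day 1 the highest irradiated mouse overlapped the lowest control. The change in the effect was 5.32 ± 0.70 (SE; limma, adjusted p = 2.28e-06), and Slc4a1 holds under every scaling.

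Ank1, the ankyrin that ties band 3 to the membrane skeleton, moved in the same way. Its levels in the controls of day 1 were −0.21, −0.21, −0.32, 1.28 and 0.97, and the irradiated mice ran from −4.30 through −2.66 to −0.43, all below the controls. At day 7 the controls ran from −0.31 through 0.52 to 0.92 and the irradiated mice from 2.49 through 3.41 to 3.93, all above the controls. The 6.88-fold deficit of day 1 became a 7.12-fold excess at day 7, a change of 5.61 ± 0.73 (limma, adjusted p = 1.84e-06). Of the 17 members, 8 hold under every scaling, and with normexp background correction 12 were still called. With the hepatocyte covariate 17 were called.

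Heme and iron genes were higher in 14 of 22 members tested among 23 listed, with none lower and a median change of 2.12. Alas2 encodes the erythroid enzyme that starts heme synthesis. Its levels in the controls of day 1 were 9.96, 9.88, 9.49, 9.89 and 9.99, and in the irradiated mice 8.46, 9.52 and 9.97 (lowest, median and highest), so the groups overlapped. At day 7 the controls lay at 9.80, 10.24 and 10.56 and the irradiated mice at 12.04, 12.42 and 12.77, with no overlap. The change was 2.66 ± 0.31 (limma, adjusted p = 4.38e-07), with the probe saturated on 1 control and 3 irradiated arrays of day 1. A saturated level is a minimum, so the true levels of these 4 arrays, and with them the overlap at day 1 and the size of the change, are not known from this probe. Slc25a37, mitoferrin, which carries iron into the mitochondrion, changed by 5.00 ± 0.48, and Glrx5, needed for iron-sulphur clusters, by 4.00 ± 0.40. Fech, ferrochelatase, the last enzyme of the pathway, changed by 3.53 ± 0.40, and Tfrc, the transferrin receptor, by 3.06 ± 0.44. Only Slc25a37 of this list holds under every scaling, and the list median was −0.32 with spike-in centring, still above the −2.35 of all genes.

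Genes that reticulocytes use to clear proteins and organelles were higher in 17 of 20 members tested among 25 listed, with a median change of 3.46 and none lower. Wdr26, a subunit of an E3 ubiquitin ligase that acts in terminal erythroid maturation, had levels of 3.96, 3.54, 3.54, 4.43 and 4.36 in the controls of day 1, and 2.28, 2.52 and 3.34 (lowest, median, highest) in the irradiated mice. At day 7 these were 2.99, 3.90 and 4.18 in the controls and 6.34, 7.58 and 8.07 in the irradiated mice. The groups did not overlap on either day, with the irradiated mice low at day 1 and high at day 7, and the change was 4.85 ± 0.42 (limma, adjusted p = 2.97e-08). Ube2o and Ube2h, ubiquitin-conjugating enzymes of late erythroid cells, changed by 5.09 ± 0.46 and 4.82 ± 0.51, and Bnip3l (Nix), which removes mitochondria from reticulocytes, by 3.18 ± 0.44. Here 7 members hold under every scaling, and 9 do so without the spike-in setting.

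Erythroid regulators were less uniform, with 6 of 16 members tested among 18 listed higher, none lower and a median change of 0.63. Ahsp, the chaperone of α-globin, changed by 5.12 ± 0.63 and Sox6, a factor of terminal erythroid differentiation, by 4.87 ± 0.48. Both hold under every scaling, but Sox6 was well above background on only 3 of 6 irradiated arrays of day 1. Klf1, the erythroid Krüppel-like factor, changed by 2.49 ± 0.33. Gata1, the master factor of the lineage, was at 0.94 ± 0.43, which did not pass the test (limma, adjusted p = 0.0767).

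**Figure D4:**
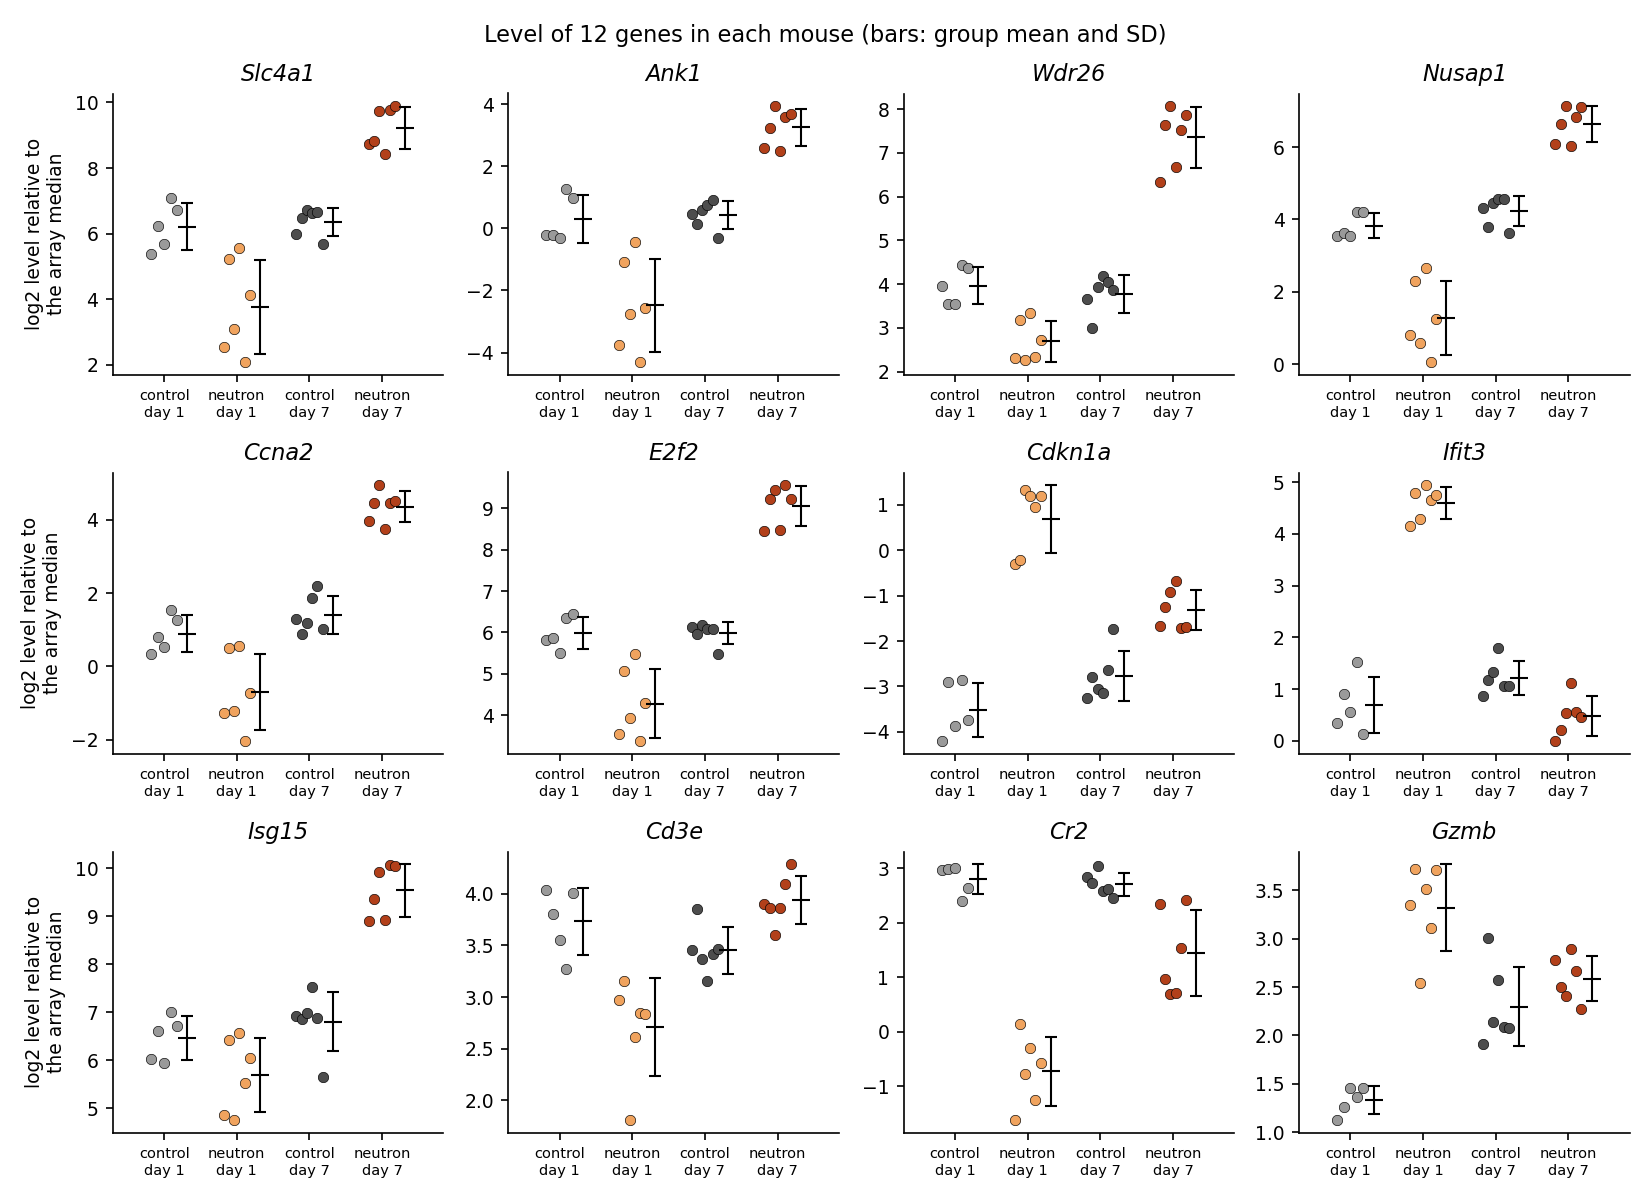
Log2 level relative to the array median of 12 genes in each mouse, 1 point per mouse and 1 panel per gene, with bars for the group mean and SD (n = 5 controls of day 1, n = 6 in the other groups). Slc4a1, Ank1, Wdr26, Nusap1, Ccna2 and E2f2 are lowest in irradiated mice of day 1 and highest in those of day 7, while Cdkn1a and Ifit3 are highest in irradiated mice of day 1.

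Mitosis genes were higher at day 7 in 18 of 34 members tested among 48 listed, none lower, with a median change of 1.41. Nusap1, a spindle protein, had levels of 3.54, 3.61, 3.55, 4.20 and 4.21 in the controls of day 1 and 0.06, 1.03 and 2.67 (lowest, median, highest) in the irradiated mice. At day 7 the controls lay at 3.64, 4.39 and 4.58 and the irradiated mice at 6.02, 6.74 and 7.13. Both days separated the groups, in opposite directions, with a change of 4.96 ± 0.51 (limma, adjusted p = 1.26e-07). Ccna2, cyclin A2, which drives S phase and the entry into mitosis, had levels of 0.33, 0.80, 0.53, 1.53 and 1.27 in the controls of day 1 and −2.04, −0.97 and 0.55 in the irradiated mice. At day 7 it lay at 0.87, 1.24 and 2.19 in the controls and at 3.76, 4.47 and 4.95 in the irradiated mice. The irradiated mice overlapped the controls at day 1 but not at day 7, and the change was 4.54 ± 0.54 (limma, adjusted p = 6.4e-07).

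Ube2c, the ubiquitin-conjugating enzyme of the anaphase-promoting complex, changed by 4.41 ± 0.56, Cdc25b, a phosphatase that activates Cdk1, by 4.28 ± 0.46, and Fzr1, which directs the complex in G1, by 3.72 ± 0.38. These 3 with Nusap1 and Ccna2 are the cell cycle genes that the study singled out on these samples, so that their change is not independent evidence. The study also measured these genes by qRT-PCR relative to Actb and reported the same turn. After neutrons the qRT-PCR fold changes were generally larger than on its arrays. For Nusap1 and Cdc25b its arrays gave smaller rises over the controls at day 7 than those here. Nusap1, Ccna2 and Cdc25b hold under every scaling. Ccnb2, cyclin B2, changed by 3.54 ± 0.40. The other 16 tested members did not pass, and their changes ran from −1.10 to 0.98. The DNA replication list moved less, with 5 of 29 members tested among 46 listed higher, none lower and a median of 0.35. They include Lig1, which joins Okazaki fragments (3.85 ± 0.53), and Mcm2, of the replicative helicase (1.54 ± 0.25). With spike-in centring the medians were −1.04 for mitosis and −2.09 for replication.

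E2f2, a transcription factor of the cell cycle and of late erythroid division, had levels of 5.81, 5.87, 5.51, 6.35 and 6.43 in the controls of day 1 and 3.38, 4.11 and 5.47 (lowest, median, highest) in the irradiated mice. At day 7 it lay at 5.49, 6.09 and 6.19 in the controls and at 8.45, 9.22 and 9.56 in the irradiated mice. No irradiated mouse overlapped the controls of its day, and the change was 4.79 ± 0.44 (limma, adjusted p = 4.25e-08). It was 1 of 3 higher members among 8 members tested of 13 in the E2f and pocket protein list. E2f2 and Wdr26 also belong to 9 genes that the study picked on these samples because they turned from low at day 1 to high at day 7, and all 9 were called here, with changes from 3.89 to 5.18. The other 7 were Slc25a51, Anp32e, Eif5, Bsdc1, Mtmr3, Ubac1 and Mta3, and all 9 hold under every scaling. Being chosen on these mice, they are not independent evidence of it.

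The promoters of 2 of the mitosis genes are shown because 18 of the 34 members tested rose and mitotic genes often carry the same short elements before their start. They are the 250 bases before the RefSeq start (GRCm38.p6), 5′ to 3′ on the gene's strand, for Ube2c at chr2:164769679-164769928 (plus strand) and Ccnb2 at chr9:70421555-70421804 (minus strand). Capitals mark the CHR element TTTGAA and the CCAAT box CCAAT on either strand, and a pair of CCAAT boxes on opposite strands overlaps in Ube2c.
Ube2c: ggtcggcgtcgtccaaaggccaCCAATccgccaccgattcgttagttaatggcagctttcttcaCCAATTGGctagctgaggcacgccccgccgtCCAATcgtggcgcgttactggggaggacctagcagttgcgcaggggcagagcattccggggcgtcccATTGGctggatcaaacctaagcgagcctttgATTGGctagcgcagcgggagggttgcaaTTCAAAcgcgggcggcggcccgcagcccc
Ccnb2: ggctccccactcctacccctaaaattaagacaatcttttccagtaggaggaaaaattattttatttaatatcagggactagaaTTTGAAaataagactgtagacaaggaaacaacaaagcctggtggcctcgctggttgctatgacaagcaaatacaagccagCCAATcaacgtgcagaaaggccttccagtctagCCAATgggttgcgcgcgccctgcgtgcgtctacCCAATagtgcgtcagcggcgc
Among the 15 higher mitosis genes with a promoter in the table, 6 held TTTGAA and 11 held CCAAT. Among the 14 mitosis genes that were not called, 4 and 11 did. Over all 27025 promoters the shares were 16.3% and 34.5%, and over the 1240 higher genes with a promoter they were 13.1% and 38.5%.

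Ribosomal protein genes were higher in 50 of 60 members tested among 79 listed, with none lower and a median change of 1.69. Rplp0, a protein of the ribosomal stalk, had levels of 8.48, 8.79, 8.52, 8.57 and 8.78 in the controls of day 1, 7.58, 8.38 and 8.65 in the irradiated mice of day 1, 8.73, 9.09 and 9.49 in the controls of day 7 and 10.74, 11.60 and 11.82 in the irradiated mice of day 7. Only the irradiated mice of day 7 stood apart, and the change was 2.71 ± 0.29 (limma, adjusted p = 1.82e-07). The count depended on the scaling. With quantile normalization on the same genes it had 5 members higher and 1 lower with a median of 0.30, with normexp none was called either way (median 0.17), and none of the 50 holds under every scaling. Of 41 genes of oxidative phosphorylation tested among 55 listed, 8 were higher and 6 lower. Atp5b, the catalytic β subunit of ATP synthase, changed by 2.12 ± 0.30, and Ndufv1, of complex I, fell by 1.88 ± 0.45. Of 11 proteasome genes tested among 31 listed 1 was higher and 3 were lower, with Psmb6, the caspase-like catalytic subunit, down by 1.38 ± 0.26. Ndufv1 and Psmb6 hold under every scaling. Among smaller groups, 5 of 20 splicing genes (56 listed) and 6 of 16 clustered histone genes (25 listed) were higher. So were 1 of 7 aminoacyl-tRNA synthetases (21 listed), 1 of 14 genes of double-strand break repair (32 listed) and 2 of 12 of the other repair pathways (36 listed). The shares of the synthetases and of both repair groups are below the 21.4% of all genes. No member of these groups had a lower effect. At day 7 alone, 4 double-strand break members were lower than the controls and none higher. Of the other repair members 4 were lower and 3 higher. Of the 32 and 36 listed, 19 and 27 were well above background on at least 50% of the irradiated arrays of day 7.

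**Figure D5:**
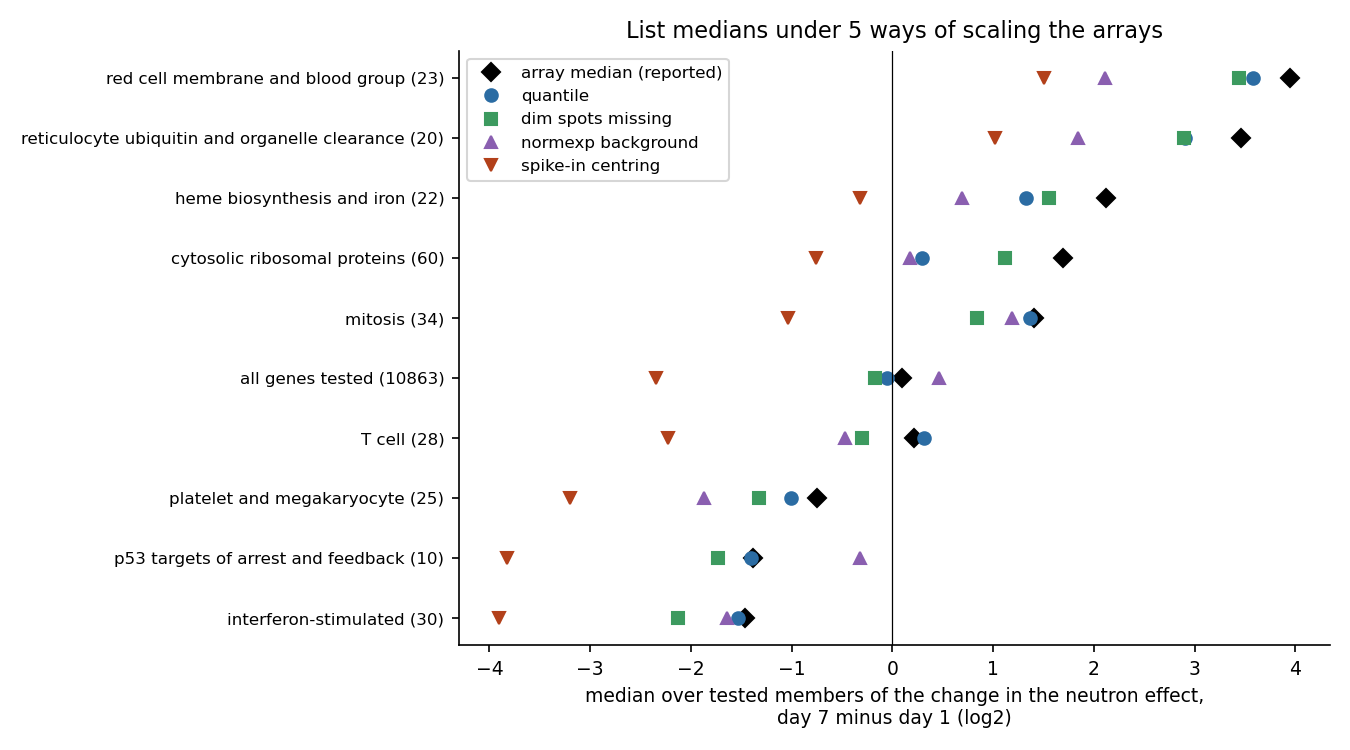
Median change in the neutron effect, day 7 minus day 1 (log2), over the tested members of 9 gene lists and of all genes, each under 5 ways of scaling the arrays (symbols). The red cell membrane and reticulocyte lists stay above 0 under each, the lists of p53 arrest targets, interferon-stimulated and platelet genes stay below it, and the ribosomal, mitosis and heme medians lie below 0 with spike-in centring, as does the median of all genes at −2.35.

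The p53 targets ran the other way. Of 10 targets of arrest and feedback tested among 17 listed, 7 had a lower effect at day 7 and none a higher one, with a median of 1.44 at day 1 and 0.05 at day 7. Cdkn1a encodes p21, the inhibitor of cyclin-dependent kinases. It lay at −4.20, −2.91, −3.87, −2.87 and −3.74 in the controls of day 1 and at −0.32, 1.06 and 1.32 (lowest, median, highest) in the irradiated mice. At day 7 it lay at −3.25, −2.92 and −1.73 in the controls and at −1.71, −1.46 and −0.69 in the irradiated mice. The irradiated mice were above the controls on both days without overlap, but by 18.3-fold at day 1 and 2.73-fold at day 7, and the effect fell by 2.75 ± 0.48 (limma, adjusted p = 6.51e-05). Phlda3, an inhibitor of Akt, fell by 1.80 ± 0.29 and Rps27l, a small p53-induced ribosomal protein, by 1.94 ± 0.34. Both hold under every scaling, which Cdkn1a does not. Of the list of p53 targets named for apoptosis, 8 of 13 members were tested and 2 were lower. The nuclease Aen fell by 1.60 ± 0.24 and holds under every scaling. Dcxr fell by 2.31 ± 0.57, and its call was lost without any 1 of 9 mice. Dcxr is counted only as a member of the list, and a role in apoptosis was not tested. Bax, which opens the mitochondrial outer membrane, was at −0.44 ± 0.23 (limma, adjusted p = 0.118).

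Of 30 interferon-stimulated genes tested among 35 listed, 15 had a lower effect at day 7, 3 a higher one and 12 did not pass, with a median effect of 1.54 at day 1 and 0.10 at day 7. Ifit3, which binds foreign RNA with its partners, had levels of 0.34, 0.91, 0.57, 1.51 and 0.13 in the controls of day 1, and 4.15, 4.70 and 4.94 (lowest, median, highest) in the irradiated mice, far above them. At day 7 the controls lay at 0.86, 1.12 and 1.80 and the irradiated mice ran from −0.00 through 0.50 to 1.12, overlapping the controls. The effect fell by 4.64 ± 0.34 (limma, adjusted p = 6.53e-09). Slfn4, a Schlafen gene of myeloid cells, fell by 3.98 ± 0.64, Oasl1, an oligoadenylate synthetase-like protein, by 3.07 ± 0.32, Mx1, an antiviral GTPase, by 2.59 ± 0.29, and Ifit2 by 2.18 ± 0.28. In Mx1 the controls themselves differed between the days, by 1.22 (day 7 minus day 1) without overlap, and the irradiated mice by −1.36. Ifit1 was at −1.21 ± 0.36 and did not pass (limma, adjusted p = 0.00801). Of the 15, 13 hold under every scaling. The spike-in setting cost no lower gene its place in that set, but it cut the higher genes from 268 to 110. The 13 are therefore not ranked against the counts of lists that rose.

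The 3 members that rose were Rsad2 (viperin), at 3.81 ± 0.51, Isg15, a ubiquitin-like modifier, and Oas3. The Isg15 levels were 6.03, 6.60, 5.94, 7.00 and 6.72 in the controls of day 1, 4.76, 5.79 and 6.56 in the irradiated mice of day 1, 5.65, 6.89 and 7.52 in the controls of day 7 and 8.90, 9.65 and 10.07 in the irradiated mice of day 7. Only the last group stood apart, and the change was 3.50 ± 0.50 (limma, adjusted p = 5.38e-06). None of the 3 holds under every scaling.

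The promoters of Ifit3 and Isg15 are shown because these genes moved in opposite directions and both hold the interferon-stimulated response element, searched as GAAA, any 2 bases and GAAA on both strands and printed in capitals. They are the 250 bases before the RefSeq start, Ifit3 at chr19:34583279-34583528 (plus strand) and Isg15 at chr4:156200819-156201068 (minus strand, GRCm38.p6). The matches of Isg15 overlap each other.
Ifit3: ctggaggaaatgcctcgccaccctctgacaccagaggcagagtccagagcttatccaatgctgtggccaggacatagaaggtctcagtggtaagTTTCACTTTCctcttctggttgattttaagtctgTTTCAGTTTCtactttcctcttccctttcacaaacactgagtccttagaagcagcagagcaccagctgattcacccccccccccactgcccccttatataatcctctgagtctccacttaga
Isg15: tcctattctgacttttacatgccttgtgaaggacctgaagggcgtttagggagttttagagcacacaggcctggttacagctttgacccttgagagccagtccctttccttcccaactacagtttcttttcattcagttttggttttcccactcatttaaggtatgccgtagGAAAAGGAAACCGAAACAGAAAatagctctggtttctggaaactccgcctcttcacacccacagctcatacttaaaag
The element was held by 3 of the 7 lower interferon-stimulated genes with a promoter in the table, by all 3 of the higher ones and by 4 of the 9 that were not called, against 3.04% of all promoters.

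B cell genes were far below the controls on both days. The median effect of 24 members tested among 25 listed was −2.48 at day 1 and −2.15 at day 7. On their own, 19 of them were lower than the controls at day 1 and 17 at day 7. Between the days 4 had a higher effect and 1 a lower one, a share near that of all genes. Cd79a, of the B cell receptor, was at −0.34 ± 0.40 (limma, adjusted p = 0.489) and was below the controls without overlap on both days. Cr2, the complement receptor of mature B cells, was 1 of the 4. Its levels were 2.98, 2.99, 3.01, 2.39 and 2.64 in the controls of day 1, −1.62, −0.68 and 0.15 (lowest, median, highest) in the irradiated mice of day 1, 2.45, 2.67 and 3.04 in the controls of day 7 and 0.69, 1.25 and 2.41 in the irradiated mice of day 7. The irradiated mice lay below the controls on both days, by 11.6-fold at day 1 and 2.40-fold at day 7, and the change was 2.26 ± 0.44 (limma, adjusted p = 0.00023). Of 10 genes of MHC class II presentation tested among 11 listed 1 passed, its master regulator Ciita, with a change of 2.40 ± 0.36. With spike-in centring Cr2 and Ciita were at −0.18 and −0.04.

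Of 28 T cell genes, all that were listed, 3 were higher and none lower, with a median effect of −1.03 at day 1 and −0.64 at day 7. The share of higher members is below the 21.4% of all genes. On their own, 12 were lower than the controls at day 1 and 10 at day 7, with none higher on either day. Cd3e, of the T cell receptor complex, had levels of 4.04, 3.80, 3.55, 3.27 and 4.01 in the controls of day 1, 1.81, 2.84 and 3.16 in the irradiated mice of day 1, 3.15, 3.44 and 3.86 in the controls of day 7 and 3.60, 3.89 and 4.29 in the irradiated mice of day 7. The irradiated mice were below all controls at day 1 and overlapped them at day 7, with a change of 1.51 ± 0.29 (limma, adjusted p = 0.000207). Cd8b1, of the CD8 coreceptor, changed by 2.73 ± 0.50. Cd3d, of the same receptor complex as Cd3e, did not pass, with a change of 0.05 ± 0.31. Its effect at day 7 was still −0.90. Of 21 NK and cytotoxic genes, again all listed, 3 were lower and none higher, and all 21 had a change below 0, with a median of −0.90. The median change of these 21 between the days was 0.52 in the controls and −0.30 in the irradiated mice, so that here the controls moved by more. A fit with scan date as a fixed block cannot test them, since its day 7 effect rests on 1 irradiated mouse. Gzmb, the protease granzyme B, had levels of 1.13, 1.26, 1.46, 1.37 and 1.46 in the controls of day 1, 2.54, 3.43 and 3.72 in the irradiated mice of day 1, 1.91, 2.11 and 3.01 in the controls of day 7 and 2.27, 2.58 and 2.89 in the irradiated mice of day 7. The irradiated mice stood above all controls at day 1 and within their range at day 7, and the effect fell by 1.70 ± 0.30 (limma, adjusted p = 7.18e-05). The controls of day 7 were themselves above those of day 1 without overlap. Fasl, a death ligand, fell by 1.45 ± 0.32. Between the days it differed by 0.92 in the controls, without overlap, and by −0.53 in the irradiated mice, which overlapped. Gzmb and Fasl hold under every scaling.

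In myeloid and platelet lists few members passed. Of 20 genes of mature neutrophils tested among 22 listed 1 passed, the integrin Itgam (2.09 ± 0.50), whose call was lost without replicate 1 of the day 1 controls, and the median effect was 1.45 at day 1 and 0.94 at day 7. Of 14 granule genes (21 listed) 1 was higher and of 21 monocyte genes (24 listed) 2 were, with none lower in either. None of the 25 platelet genes, all tested, passed in limma, with 1 higher and 5 lower at an unadjusted p below 0.05. Their changes were below 0 in 24 of 25, with a median of −0.75. With quantile normalization 4 of these 25 were lower, and with spike-in centring all 25 were.

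Acute-phase genes had the lowest median change of the lists, −3.35 over 5 members tested among 12 listed, but only Saa1, serum amyloid A, passed. Its levels were 0.07, 1.09, 0.74, 6.11 and 0.07 in the controls of day 1, 5.46, 8.31 and 8.82 (lowest, median, highest) in the irradiated mice of day 1, 1.01, 1.48 and 2.13 in the controls of day 7 and 1.90, 2.43 and 3.43 in the irradiated mice of day 7. Replicate 4 of the day 1 controls reached the level of the irradiated mice, so these groups overlapped, and so did those of day 7. The effect fell by 5.30 ± 1.07 (limma, adjusted p = 0.000317), and Saa1 holds under every scaling. Saa1 is made by hepatocytes. The hepatocyte levels of the 5 controls of day 1, in the order of their Saa1 levels above, were 3.50, −1.33, 4.45, 5.78 and −0.57, and the part of these transcripts in the Saa1 levels was not tested beyond the covariate. With the hepatocyte covariate 4 of the 5 acute-phase genes were lower. The 17 hepatocyte genes tested among 42 listed had a median change of −1.47, and none passed in limma, with 3 lower and none higher at an unadjusted p below 0.05.

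Among called genes with a RefSeq name whose probe was well above background on at least 50% of the arrays of each group, Fam13c (7.91 ± 1.32), Wsb2 (7.45 ± 1.41), Lrrc2 (6.75 ± 1.04), Apol10a, Apol11b (6.51 ± 0.71), Dppa2 (6.44 ± 0.69) and Spint2 (6.30 ± 1.18) rose the most. All 7 hold under every scaling. The apolipoprotein L gene Apol10a had levels of −2.08, −1.75, −1.76, 0.19 and −0.38 in the controls of day 1, −5.96, −3.80 and −1.28 in the irradiated mice of day 1, −0.91, −0.17 and 0.14 in the controls of day 7 and 3.47, 3.91 and 4.28 in the irradiated mice of day 7. The irradiated mice overlapped the controls at day 1 and were 18.4-fold above them at day 7, without overlap, and the change was 6.64 ± 0.82 (limma, adjusted p = 1.14e-06). In Wsb2 and Spint2 the controls themselves differed between the days, by −2.82 and −2.54 (day 7 minus day 1).

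Of the called genes under the same condition, the largest falls after that of Saa1 were those of Gata6 (fell by 4.81 ± 1.03), Ifit3b (fell by 4.69 ± 0.38), Ifit3, Wtip (fell by 4.64 ± 0.87), Slfn4, Efemp2 (fell by 3.78 ± 0.69) and Slfn3 (fell by 3.66 ± 0.52). Gata6 was well above background on 3 of 5 controls of day 1 and 4 of 6 irradiated arrays of day 7, and Wtip on 3 of 5 and 3 of 6. Efemp2 and Slfn3 were so on 4 of 6 irradiated arrays of day 7. The sizes of these falls rest in part on background readings. The levels of Gata6, a factor of heart and gut development, were −5.82, −4.14, −4.24, −4.15 and −5.82 in the controls of day 1, −2.91, −0.40 and 0.94 in the irradiated mice of day 1, −3.48, −2.81 and −0.32 in the controls of day 7 and −4.76, −2.10 and −1.46 in the irradiated mice of day 7. Between the days the controls differed by 2.70 and the irradiated mice by −2.11, and the adjusted p was 0.000564 (limma). The controls also differed by 2.66 in Wtip and by 2.42 in Efemp2, and these 3 genes did not hold under every scaling. The mean level of 14 heart muscle genes ran from −4.37 to 1.72 in the controls of day 7, against −5.22 to −4.82 in those of day 1, −5.33 to −2.86 in the irradiated mice of day 1 and −3.61 to −3.09 in those of day 7. Myh6, the cardiac myosin, lay between −4.60 and 6.27 in the controls of day 7, above background on all 6 arrays. Their part in these 3 falls was not tested.

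The change between the days was also compared with that after x-rays, where the controls cancel out, over 23 arrays for each dose of x-rays. Both comparisons use the same neutron arrays. After 1 Gy of x-rays 1038 genes differed from the neutron change (9.56%), 970 of them with a higher change after neutrons (8.93%) and 68 with a lower one (0.626%). The arrays of mice given 1 Gy of x-rays had 52.8% to 58.8% of their spots well above background at day 7, more than those of the neutron mice, and the direction of these counts followed the scaling, with 2 genes higher and 802 lower after spike-in centring. Of the 23 red cell membrane genes none differed in limma, with 6 higher and none lower at an unadjusted p below 0.05, and Slc4a1 was at 0.83 ± 0.73 (adjusted p = 0.436). The interferon-stimulated genes differed in 6 of 30, all with a lower change after neutrons, and in 7 of 29, 20 of 33 and 17 of 30 with quantile normalization, spike-in centring and dim spots left out, again all lower. The change of Ifit3 relative to 1 Gy of x-rays was −2.71 ± 0.38 (limma, adjusted p = 6.95e-05), and that of Oasl1 was −1.75 ± 0.37. Ribosomal protein genes had a higher change after neutrons in 56 of 60, but in 35 of 53 with dim spots left out, in 6 of 38 with quantile normalization and in none of 70 with spike-in centring.

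Against 4 Gy of x-rays 2560 genes differed (23.6%), 1982 with a higher change after neutrons (18.2%) and 578 with a lower one (5.32%), and with spike-in centring 20 and 9778. Mitosis genes had a lower change after neutrons in 16 of 34 and a higher one in 2, DNA replication genes in 12 and 1 of 29, and T cell genes in 9 and 1 of 28. With quantile normalization these were 16 of 35 lower and none higher, 17 of 34 and none, and 15 of 28 and none. Mcm2 changed by −1.45 ± 0.30 relative to 4 Gy of x-rays (limma, adjusted p = 0.000469). Nusap1 and Ccna2 were at 0.11 ± 0.57 and −0.03 ± 0.55, each difference smaller than its SE. No interferon-stimulated gene passed against 4 Gy of x-rays in limma, with 5 higher and 6 lower at an unadjusted p below 0.05, and Ifit3 was at −0.97 ± 0.40 (adjusted p = 0.0550). With dim spots left out 5 of 30 were lower, beside 1769 of 10746 over all genes, and with spike-in centring 21 of 33, beside 9778 of 15973. Both shares lie near those of all genes.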

How the data were processed

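The authors hybridized Cy3-labelled RNA to Agilent mouse 4x44K v2 arrays and extracted them with Agilent Feature Extraction 12.0.2. The deposited values are intensities per spot, background-subtracted within the array and not normalized between arrays. A deposited series table of log2 values (72 columns) was not used. The log2 intensities of replicate spots were averaged, and the median over detected probes was subtracted from each array. Of 39429 probes, 19808 counted as detected (fewer than 25% of spots dim or flagged as outliers among 56 arrays, days 1 and 7), and 12556 of these varied at least 1.5-fold on 20% of the arrays. The brightest probe stood for each of 10863 genes, of which 7912 were named through RefSeq. The 4 groups were fitted together in limma 3.58.1 (R 4.3.3; lmFit, eBayes, Benjamini-Hochberg), 2-sided, with calls at p below 0.001 and a false discovery rate below 0.05. Effects at each day came from the 2 groups of that day alone. The fit was tested on simulated data. Spots per array number 44397, and 5 or 6 mice per group limit the precision. Named genes were the 8 largest rises and falls among measured RefSeq genes, the extremes and first members of each of 31 lists and the study's 14 genes, in part. Isg15, Oas3, Cr2, Glrx5, Fech, Tfrc, Ahsp, Ube2h, Bnip3l, Rps27l, Phlda3, Aen, Oasl1, Mx1 and Fasl were added after their values were seen. A member that this rule names is not reported here. Lists and members were chosen with earlier results of these data known. Day 3 (16 arrays) was not used.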

Additional observations from a re-analysis of the deposited data

Results flagged for a closer look

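The neutron effect differed between day 7 and day 1 in 3116 genes, and the change over days differed between neutrons and 1 Gy of x-rays in 1038 genes and between neutrons and 4 Gy of x-rays in 2560, each by a test of the difference itself. Of 124 sets of values tested for a sample far from its group, 12 had one, and chance gives about 1 in 20. Replicate 4 of the irradiated mice of day 1 had a hepatocyte level of −1.16, a neutrophil granule level of 2.25 and a Saa1 level of 5.46, against higher hepatocyte and Saa1 levels in the other 5. Replicate 1 of the irradiated mice of day 7 had a hepatocyte level of 2.21. Among the controls of day 1, replicate 4 had a Saa1 level of 6.11 and a B cell level of 2.68, replicate 3 an Alas2 level of 9.49 and replicate 5 a median spike-in intensity of 3268. Replicate 6 of the controls of day 7 had an E2f2 level of 5.49, an Isg15 level of 5.65 and a median intensity of detected probes of 467.7. Replicate 4 of the irradiated mice of day 7 had an Rplp0 level of 10.74.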

How the results depend on the processing

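The counts of genes with a higher and a lower effect (2329 and 787) moved by over 1.5 times under several settings. With genes chosen anew, they were 139 and 10595 with spike-in centring, 257 and 468 with normexp, and 1486 and 2023 with dim spots missing. Centring on all spots gave 1223 lower, no filter on dim probes 8294 higher, and no filter on fold variation 1278 lower. Quantile normalization gave 1844 and 947. On the same genes, a choice made after seeing the data, they were 138 and 5580 with spike-in centring, 297 and 391 with normexp, and 1532 and 1647 with dim spots missing. The share of higher genes among those called was 74.7%, and 66.1% with quantile normalization, 61.1% with centring on all spots, 35.4% with normexp, 42.3% with dim spots missing and 1.29% with spike-in centring. Scan date as a fixed block gave 1316 and 181, and rests on few mice that share a scan date. Leaving out 1 mouse gave 2111 to 2444 higher and 582 to 1188 lower genes, and the 1188 were without replicate 4 of the irradiated mice of day 1. With a replicate block, 2176 genes were higher and 598 lower, and only 2 of 11 same-numbered pairs of mice had deviations correlated above 0.1, so the numbers do not pair them. For the change after neutrons against 1 Gy of x-rays (970 higher, 68 lower), quantile normalization gave 421 and 257, spike-in centring 2 and 802, and dim spots missing 297 and 827. Against 4 Gy (1982 and 578) these were 1160 and 1118, 20 and 9778, and 917 and 1769. Of the named genes, spike-in centring turned Cd3e (−0.93), Cr2 (−0.18), Gata1 (−1.51), Mcm2 (−0.91), Ciita (−0.042), Itgam (−0.35) and Atp5b (−0.32), normexp turned Gata1 (−0.44), and the mean of the probes turned Cd79a (0.38). The cause was not tested. Of 70 named genes, 70 kept their direction with each mouse left out, Dcxr and Itgam lost their call without at least 1 mouse and Ifit1 gained one. Of these 70, 24 lost their call with normexp, 13 with spike-in centring, 5 with quantile normalization and 3 with dim spots missing. The dim arrays of irradiated mice at day 7 limit what can be said of faint transcripts there.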
